A study of Mus musculus with 32 samples.

Results

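HOX genes encode homeodomain transcription factors that give cells their position along the body axis. Here they were taken as every row of the deposited expression table whose symbol was Hoxa, Hoxb, Hoxc or Hoxd followed by a number. This gave 39 genes of 54233 rows. A further row without a symbol, which the gene name table also calls Hoxd4, was not counted as a member and had 0 reads in all 32 samples. The samples were bulk RNA-seq libraries of KH2 mouse embryonic stem (mES) cells of the strain label C57BL/6. All groups, the 0 h cells included, carried a transgene in which a tetracycline-responsive element (TRE) drives GATA6 and the red fluorescent marker DsRed2 when doxycycline (Dox) is present. GATA6 is the transcription factor that directs the early embryo's inner cells to primitive endoderm (PrE). Cells at 0 h were uninduced and kept in 2i medium with LIF, which holds inhibitors of the kinases MEK and GSK3. The other cells were moved to serum medium with LIF and Dox at 1 µg/mL and sampled 2, 4, 8, 16, 24, 48 or 96 h later, and after 12 h they went on without Dox. A comparison with 0 h thus holds a change of medium as well as Dox, and the parts of these cannot be told apart. Each of the 8 time points had 4 replicates of this 1 cell line. The study states for its assays in general that replicates were handled as independent experiments, without saying how the RNA-seq cultures were kept apart, and p-values measure the spread between these samples.

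In mammals the HOX genes lie in 4 clusters, and each gene carries a paralog number from 1 to 13 that reflects its order along the cluster. Low numbers are switched on first and most anteriorly in the embryo, and high numbers last and most posteriorly, an order called collinearity. In mES cells the clusters are known to be held in a repressed state by Polycomb complexes, and retinoic acid is a classical inducer of the low-numbered genes. HOX proteins bind DNA together with PBX, MEIS and PREP proteins, which are homeodomain factors of another class.

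The regions just upstream of the 3 HOX genes that were called higher at both 48 h and 96 h are shown first, since the main results turn on these genes. They are the 250 bases before each start site in RefSeq (build GRCm38.p6), written 5′ to 3′ on the strand of the gene. Capitals mark the letters AGATAA or AGATAG or TGATAA or TGATAG, or their reverse complement on the other strand, which are the core letters that GATA factors are known to bind.
Hoxa10, upstream start, chr6:52240855-52241104, minus strand: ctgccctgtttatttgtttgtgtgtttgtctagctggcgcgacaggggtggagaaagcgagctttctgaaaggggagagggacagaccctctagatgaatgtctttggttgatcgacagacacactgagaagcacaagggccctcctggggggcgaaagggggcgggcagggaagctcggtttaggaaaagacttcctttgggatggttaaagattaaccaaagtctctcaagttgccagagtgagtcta
Hoxa10, downstream start, chr6:52234940-52235189, minus strand: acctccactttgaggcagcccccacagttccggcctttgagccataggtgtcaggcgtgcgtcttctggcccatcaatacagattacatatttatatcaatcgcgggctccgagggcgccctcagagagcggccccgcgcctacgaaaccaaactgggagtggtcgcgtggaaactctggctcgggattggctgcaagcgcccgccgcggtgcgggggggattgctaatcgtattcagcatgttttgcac
Hoxb4, chr11:96318017-96318266, plus strand: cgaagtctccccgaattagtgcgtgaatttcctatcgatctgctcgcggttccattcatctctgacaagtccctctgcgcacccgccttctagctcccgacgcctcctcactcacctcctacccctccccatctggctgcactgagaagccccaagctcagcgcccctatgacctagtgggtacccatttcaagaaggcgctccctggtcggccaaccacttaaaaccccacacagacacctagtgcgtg
Hoxd8, chr2:74704365-74704614, plus strand: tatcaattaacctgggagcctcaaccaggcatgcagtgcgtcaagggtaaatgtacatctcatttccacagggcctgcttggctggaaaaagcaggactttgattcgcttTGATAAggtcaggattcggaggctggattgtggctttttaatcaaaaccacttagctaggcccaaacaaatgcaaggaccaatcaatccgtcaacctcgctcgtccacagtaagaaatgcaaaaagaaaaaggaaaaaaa

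The sequences for Hoxa10 and Hoxb4 held no such match in these 250 bases, and the one for Hoxd8 held 1. The Hoxa10 window of the downstream start held 1 match in the 50 bases after the start, which are not printed. RefSeq promoter windows (250 bases before and 50 after the start) were found for 24 start sites of 22 HOX genes, and 7 of the 24 held a match. Over all 32851 promoters of that length the share was 29.8%, against 29.2% of the HOX windows. The median number of CG dinucleotides was 14.5 in the HOX windows and 7 over all promoters. A match is a run of letters in a window and was not measured as a bound site.

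Reads on HOX genes were few. Expression is given as normalized counts, that is reads on a gene divided by the size factor of the sample, and reads were recovered as whole numbers from the deposited values. All 39 genes together took 13662 reads over the 32 samples, and between 0.00211% and 0.00756% of the reads on genes in a sample. The highest value was 130 reads, for Hoxc13 in replicate 2 at 0 h. Between 18 and 33 of the 39 genes had at least 1 read in a sample (median 29), and 346 of the 1248 values of HOX genes were at the lowest value of the table, which stands for no read. Reads on genes per sample ranged from 3190108 to 12301732 (median 8870662.5), so counting error is a large part of each value given here. In bulk RNA, fewer cells that express a gene and less RNA per cell cannot be told apart.

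Most markers of pluripotency fell and those of PrE rose. Of 8 pluripotency markers 4 were called lower at 48 h and 6 at 96 h against 0 h, and all 12 PrE markers were called higher at both times. Klf4 and Tbx3 were not called at 96 h, with log2 fold changes of -1.15 and 0.17. Tbx3 averaged 1453 normalized counts at 0 h and 3743.5 at 16 h. The 10 fibroblast markers summed to between 61.1 and 383 normalized counts in a sample, with Dcn, Col3a1 and Twist2 at no more than 2 reads in any sample, and 1 of the 4 that passed the filter was called higher at each of 2, 4, 8, 16 and 48 h and none at 24 or 96 h. Twist1 averaged 12.8 at 0 h, 168 at 2 h and 59.7 at 48 h, where it was the one called, and Pdgfrb 48.6 at 0 h, 150 at 8 h and 33.7 at 48 h. At 96 h 3 mesoderm markers were called higher and 1 lower of 5 that passed, 1 neural marker higher and 2 lower of 4, and 4 trophoblast markers higher of 6. Hand1 is in both the mesoderm and the trophoblast list and was counted as higher in each. Of all genes tested 9.28% were called higher and 10.3% lower at 96 h, and 8.48% and 7.09% at 48 h. From 2 h to 16 h the share called higher went from 2% to 4.03%. Replicates 3 and 4 stood apart from replicates 1 and 2, and each of these pairs is called a set. The split was not particular to HOX genes. Over all genes tested, deviations from the time point means correlated at a mean of 0.196 within a set and -0.196 between sets. Deviations within a time point cancel out, so the value between sets follows nearly from that within a set. The summed HOX level was higher in replicates 3 and 4 at all 8 time points, by 2.25 times at 2 h, 1.68 times at 0 h and 1.12 times at 48 h. At 2 h and 16 h all 17 HOX genes that passed the filter were higher in replicates 3 and 4, whereas 52.3% and 51.8% of all genes tested were. At 48 h 8 of the 17 were, beside 51.7% of all genes. Among other lists at 0 h, the mean sum of the fibroblast markers was 61.6 in replicates 1 and 2 and 131 in replicates 3 and 4, that of the trophoblast markers 331 and 533, and that of the mesoderm markers 787 and 298. With the set as a block all 27 calls of HOX genes against 0 h or 2 h held, and with each set averaged to 1 value 25 held. In replicates 1 and 2 alone 22 held and in replicates 3 and 4 alone 19, and for genes reported singly the values of those that did not are given beside the results.

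**Figure D1:**
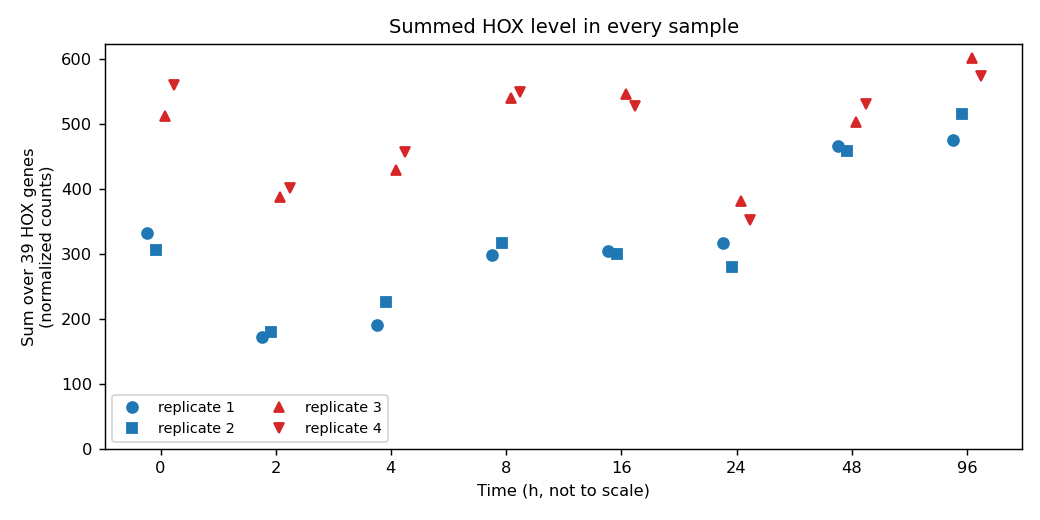
Summed normalized counts of the 39 HOX genes (vertical axis) at each time point (horizontal axis, in hours, not to scale), with 1 point a sample and colour for the pairs of replicates. The points of replicates 3 and 4 lie above those of replicates 1 and 2, most clearly at 2 h (171 to 401 over the 4 samples), and the sets come close at 48 h (458 to 530).

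No HOX gene was without a read in all 32 samples, but 10 had no more than 3 reads in any sample and are called near silent. They were Hoxa6, Hoxb1, Hoxb3, Hoxb5, Hoxb6, Hoxb8, Hoxd3, Hoxd4, Hoxd11 and Hoxd12, and together they had 96 reads over all samples. Hoxd4 had 2 reads in all, Hoxb1 3 reads, all in replicate 2 at 0 h, and Hoxb3, Hoxb5 and Hoxd3 4 reads each. Hoxb1, a gene of hindbrain segment identity that retinoic acid is known to induce, thus had no read at 2 h or later. Near silence was not spread evenly over the clusters. Of the 10 Hoxb genes 5 were near silent, of the 9 Hoxd genes 4, of the 11 Hoxa genes 1 and of the 9 Hoxc genes 0. By paralog number, 3 of the 8 genes numbered 1 to 3, 5 of the 15 numbered 4 to 8 and 2 of the 16 numbered 9 to 13 were near silent. These are counts at this depth, and 0 reads allow up to 3 reads in a sample. For Hoxd3, 62.3% of the exon bases are shared with other genes on the same strand (GENCODE M21), and for Hoxb3 52.9% are shared with an antisense gene, so how reads on shared bases were assigned could bear on both.

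A further 12 genes had more than 3 reads in some sample without passing the filter, which asked for a normalized count of 10 or more in 4 samples or more. The highest number of reads in a sample was 17 for Hoxa11, 16 for Hoxa9 and for Hoxc6, 13 for Hoxa3, 11 for Hoxa13 and 10 for Hoxc11. It was 8 for Hoxc8 and for Hoxd1, 7 for Hoxa2 and for Hoxa4, 5 for Hoxb2 and 4 for Hoxd10. Hoxa11, which patterns limb and uterus, averaged 0.817 normalized counts before induction, 8.58 in the 16 h group and 5.33 in the 96 h group. Hoxc8 averaged 5.21 at 0 h and 0.55 at 96 h. These 12 genes were not tested.

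The other 17 HOX genes passed the filter and were tested with all 15227 genes that did. Those reported singly were Hoxa5, Hoxa7, Hoxa10, Hoxb4, Hoxb7, Hoxb9, Hoxb13, Hoxc4, Hoxc5, Hoxc9, Hoxc10, Hoxc12, Hoxc13, Hoxd8, Hoxd9 and Hoxd13. A gene was called when limma's adjusted p was below 0.1 and the change at least 4-fold. A gene that passed the filter only because it is high at some time points had to differ between them, so the share of the 17 that was called says nothing of HOX genes as a class.

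**Figure D2:**
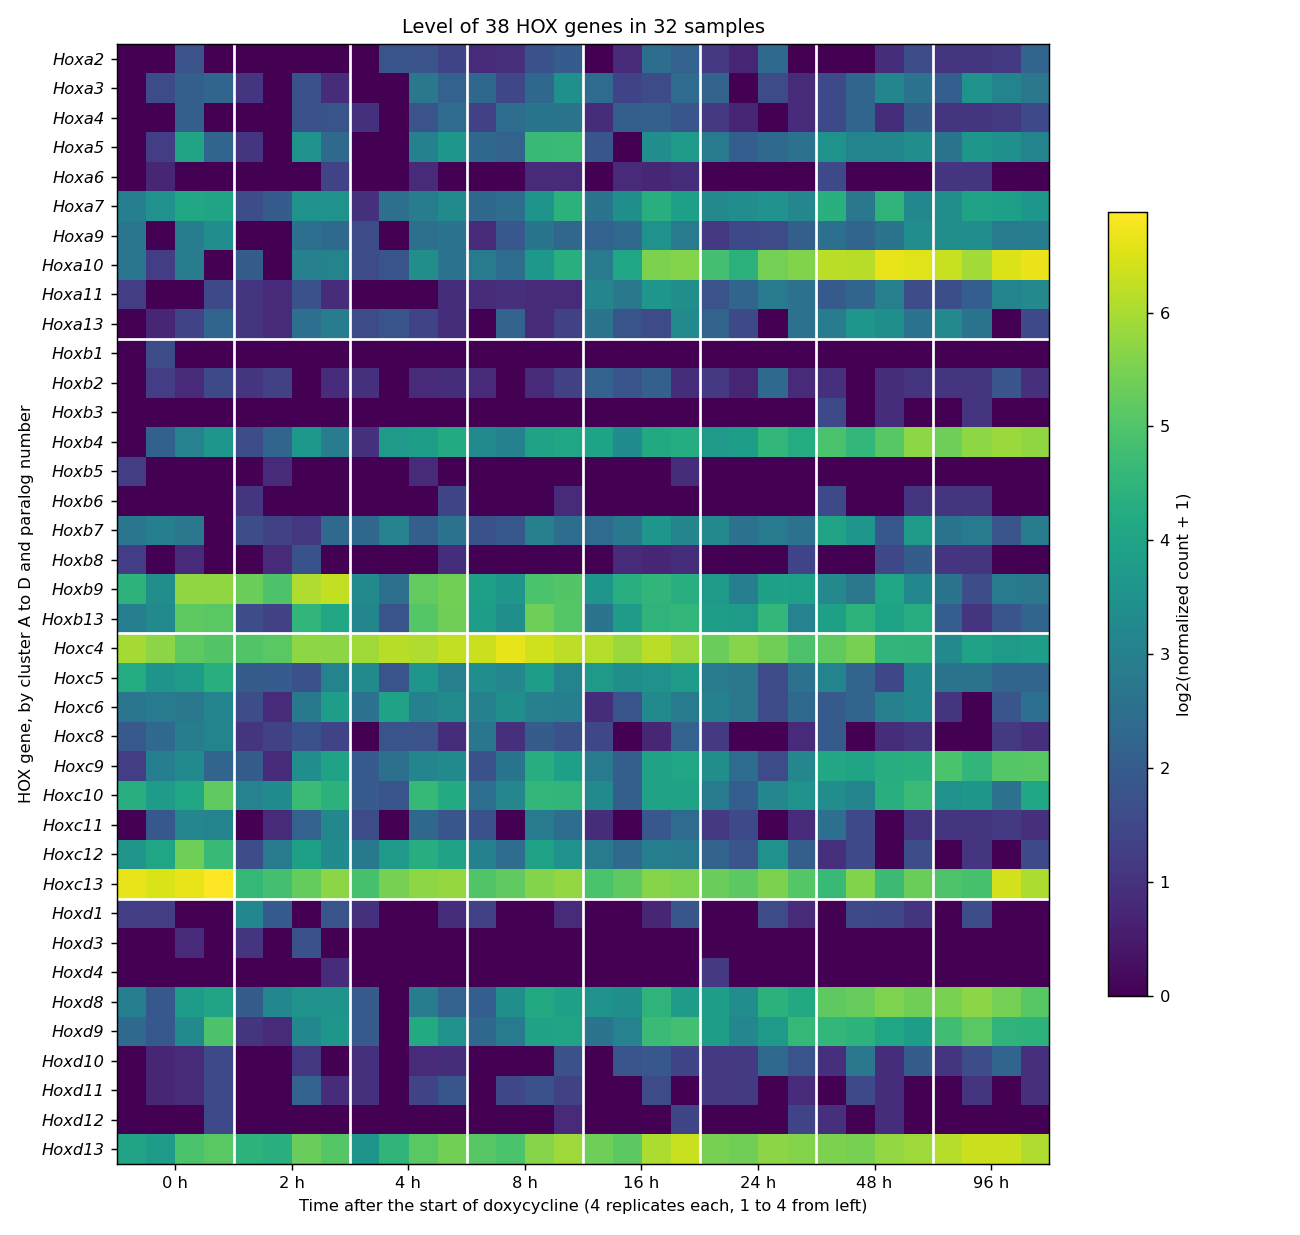
Level of each of 38 HOX genes (rows, by cluster and paralog number) in each of the 32 samples (columns, 4 replicates a time point), as log2(normalized count + 1) in colour. Hoxc4, Hoxc13 and Hoxd13 are bright at most time points, Hoxa10 and Hoxb4 brighten from left to right, Hoxc12 and Hoxb9 darken, and Hoxb1, Hoxb3, Hoxb5, Hoxd3 and Hoxd4 are dark nearly throughout.

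Against 0 h, the question was which HOX genes moved with induction and the change of medium. Of the 17 HOX genes none was called at 2, 4 or 8 h by limma or by limma-voom on the recovered reads, with 4, 6 and 6 at an unadjusted p under 0.05. The share of all genes at that unadjusted p was not counted, so these numbers show no excess of HOX genes. At 2 h 22.6% of all genes were lower and 22.2% higher at an adjusted p below 0.1, whatever the fold. The share of all genes called was 2% higher and 0.348% lower at 2 h, 2.69% higher and 0.709% lower at 4 h, and 3.4% higher and 1.31% lower at 8 h. At 16 h 1 HOX gene was called higher, beside 4.03% of all genes, and none lower, beside 2.4%. At 24 h 1 was called higher (4.85% of all genes) and 1 lower (4.34%). At 48 h 3 were called higher (8.48%) and 1 lower (7.09%), and at 96 h 4 higher (9.28%) and 3 lower (10.3%). The median log2 fold change of the 17 at 96 h was 0.47, and that of all genes tested -0.03. The filter bears on this median as well, so it too says nothing of HOX genes as a class. In all, 7 of the 17 were called at some time point. None of these 7 shares exon bases with another gene in GENCODE M21. With a pseudocount of 5 in place of 1, the changes of Hoxd8, Hoxc9, Hoxb9 and Hoxb13 at 96 h fell short of 4-fold with an adjusted p still below 0.1, and those of Hoxa10, Hoxb4 and Hoxc12 did not.

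Hoxa10 had the largest rise among the HOX genes at each of 16, 24, 48 and 96 h. It lies in cluster A (chr6:52231197-52240854, minus strand) and is known for its role in the lumbar skeleton and the uterus. At 0 h the 4 replicates had 5.52, 1.36, 6.45 and 0 normalized counts. At 16 h they had 6.09, 15.5, 45.3 and 47.5, and at 24 h 27.6, 20.7, 42.6 and 46.5. At 48 h they had 70.7, 69.7, 99.4 and 91.9, and at 96 h 77.5, 59.95, 91.6 and 101. All samples at 24 h and later were above all samples at 0 h, and at 16 h replicate 1 was not. The log2 fold change on the log2(normalized count + 1) scale was 2.79 ± 0.63 (SE) at 16 h (adjusted p = 0.000546), 3.36 ± 0.63 at 24 h (adjusted p = 4.2e-05), 4.66 ± 0.63 at 48 h (adjusted p = 1.49e-07) and 4.65 ± 0.63 at 96 h (adjusted p = 1.26e-07). At 96 h it was 4.14 in replicates 1 and 2 alone and 5.16 in replicates 3 and 4 alone, whereas at 16 h the call was lost in replicates 1 and 2 alone (1.46). Its neighbours in the cluster stayed low, with group means at 96 h of 7.98 for Hoxa9 and 5.33 for Hoxa11.

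Hoxb4, known for expanding blood stem cells, lies in cluster B (chr11:96318267-96321638, plus strand). The replicates had 0, 3.40, 7.25 and 11.3 normalized counts at 0 h. They had 29.2, 22.6, 33.4 and 51.6 at 48 h, and 40.3, 51.5, 56.5 and 52.0 at 96 h. Every sample at 48 h and 96 h was above every sample at 0 h, and the means of the 4, 8, 16 and 24 h groups (11.0, 11.6, 14.8 and 16.4) lay between. The log2 fold change was 2.87 ± 0.59 at 48 h (adjusted p = 7.94e-05) and 3.46 ± 0.59 at 96 h (adjusted p = 4.99e-06). At 96 h it was 4.47 in replicates 1 and 2 alone and 2.45 in replicates 3 and 4 alone. Hoxb4 stood between near silent genes: Hoxb3 had at most 2 reads in a sample and Hoxb5 at most 1.

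Hoxd8 (chr2:74704615-74707933, plus strand) belongs to the middle of cluster D and takes part in trunk patterning. Its replicates had 6.90, 2.72, 12.9 and 15.1 normalized counts at 0 h. Later samples had 34.9, 37.7, 45.7 and 41.3 (48 h) or 44.6, 50.5, 42.7 and 33.1 (96 h), and none of them reached down to the 0 h samples. The log2 fold change was 2.18 ± 0.49 at 48 h (adjusted p = 0.000282) and 2.26 ± 0.49 at 96 h (adjusted p = 0.000159). Both calls were lost without replicate 2 of 0 h (1.75 and 1.84) and in replicates 3 and 4 alone (1.57 and 1.37), where the change fell short of 4-fold with the same direction.

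Hoxc9 (chr15:102976439-102985099, plus strand), which sets thoracic identity in motor neurons, was called higher at 96 h. The replicates had 1.38, 6.79, 8.87 and 3.78 normalized counts at 0 h and 29.7, 22.1, 32.6 and 33.1 at 96 h. The groups did not overlap, and the log2 fold change was 2.47 ± 0.58 (adjusted p = 0.000405). At 48 h, with a mean of 17.3 ± 2.11 (SD, n = 4), it was 1.74 ± 0.58 (adjusted p = 0.00949) and fell short of 4-fold.

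Of the genes called lower, Hoxc12 had the largest fall. This posterior gene (chr15:102936757-102938609, plus strand) had 11.0, 15.6, 40.3 and 24.6 normalized counts at 0 h. By 24 h it had 3.60, 2.503, 10.2 and 3.26, by 48 h 0.942, 1.88, 0 and 2.06, and by 96 h 0, 1.05, 0 and 1.89. The samples at 48 h and 96 h had at most 2 reads, so the fold is a lower bound. Against a floor of 3 reads per library, Hoxc12 was at least 6.44-fold lower at 48 h and at least 7.07-fold lower at 96 h than its mean at 0 h (22.9). This bound covers the floor only and not the spread at 0 h (11.0 to 40.3). The adjusted p was 5.06e-07 at 48 h and 6.02e-08 at 96 h. At 24 h the log2 fold change was -2.03 ± 0.49 (adjusted p = 0.000874), close to the 4-fold limit, and leaving out replicate 3 of 0 h (-1.71), replicate 4 of 0 h (-1.94), or replicate 1 (-1.96), 2 (-1.83) or 4 (-1.93) of 24 h ended that call, as did averaging each replicate set (-1.97) and replicates 1 and 2 alone (-1.82).

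Hoxb9 (chr11:96271457-96276595, plus strand), which acts in the thoracic skeleton, had 20.7, 9.51, 52.4 and 52.9 normalized counts at 0 h. At 2 h it had 39.5, 30.2, 65.7 and 75.5, and at 96 h 5.31, 2.104, 6.28 and 5.67. The samples at 96 h lay below all samples at 0 h, and replicates 3 and 4 were above replicates 1 and 2 in both early groups. By 96 h the log2 fold change from 0 h was -2.36 ± 0.53 (adjusted p = 0.000223). It was -1.77 in replicates 1 and 2 alone, which fell short of 4-fold, and -2.94 in replicates 3 and 4 alone.

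Hoxb13 (chr11:96194316-96197447, plus strand), the most posterior gene of cluster B and a known regulator in prostate, fell late. At 0 h the replicates had 6.90, 8.83, 35.5 and 34.0 normalized counts, at 48 h 14.1, 20.7, 15.0 and 18.6, and at 96 h 3.18, 1.05, 2.51 and 3.78. The 96 h samples lay below all samples of both other groups. At 96 h the log2 fold change was -2.36 ± 0.71 against 0 h (adjusted p = 0.00385) and -2.37 ± 0.71 against 48 h (adjusted p = 0.00657). Against 0 h it was -1.59 in replicates 1 and 2 alone and -3.12 in replicates 3 and 4 alone.

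**Figure D3:**
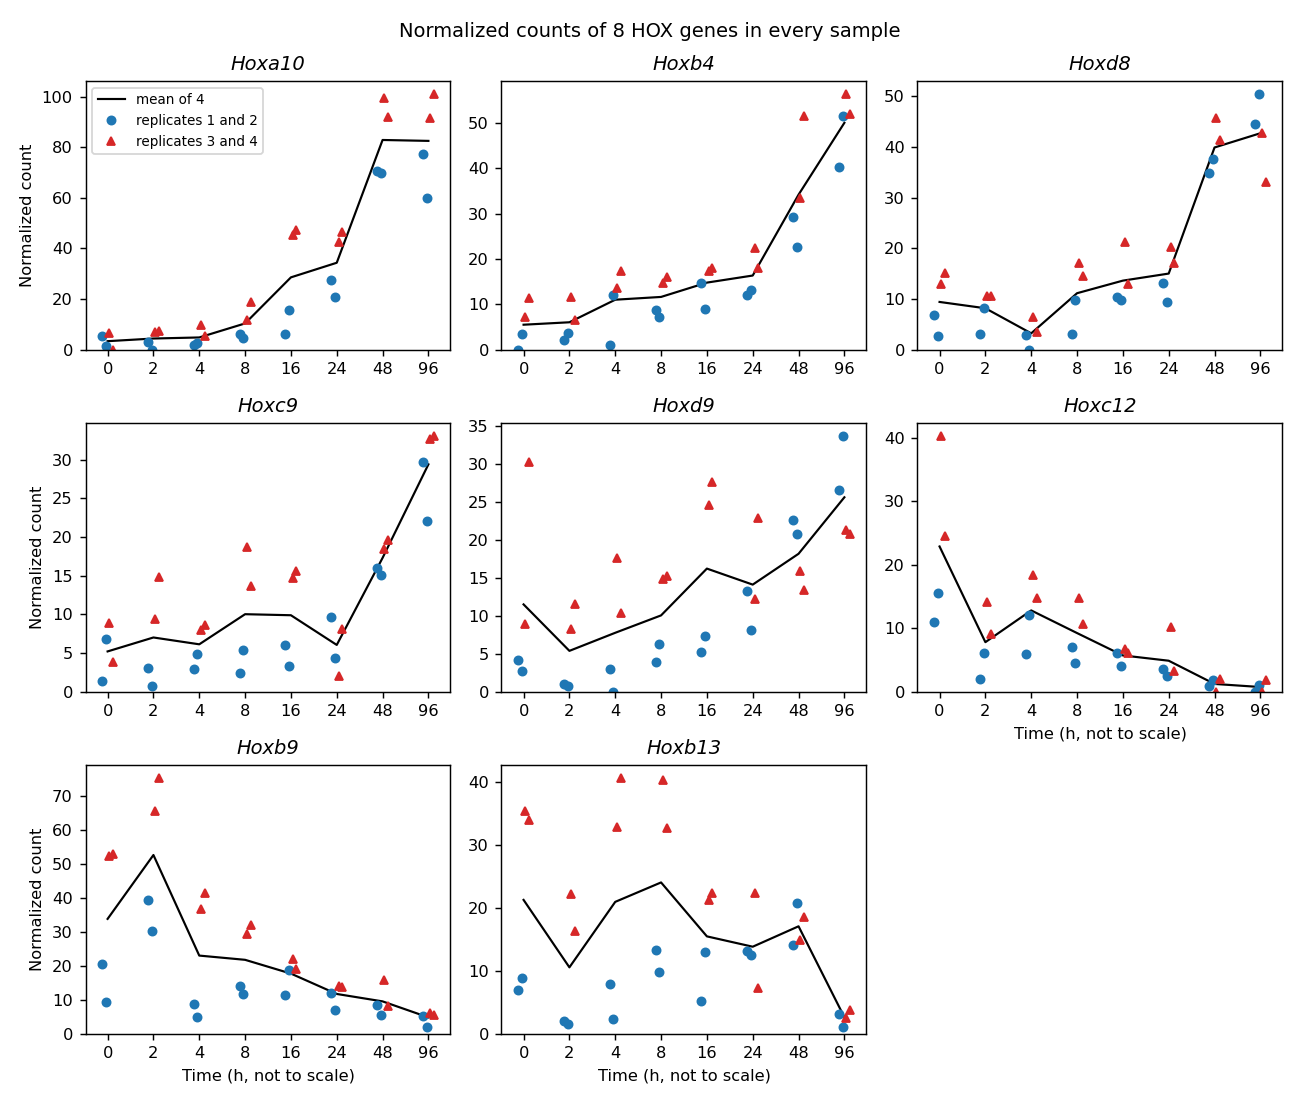
Normalized counts (vertical axis) of 8 HOX genes called against 0 h or 2 h at each time point (horizontal axis, in hours, not to scale), with 1 point a sample, colour and shape for the pairs of replicates, and a line through the means of 4. The points of Hoxa10, Hoxb4, Hoxc9 and Hoxd8 at 96 h lie above all of theirs at 0 h, Hoxc12 reaches at most 2.06 from 48 h on, and Hoxb13 drops between 48 h (mean 17.1) and 96 h (mean 2.63).

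Several other HOX genes passed the adjusted p threshold at 96 h against 0 h with a change short of 4-fold. Hoxd13, which patterns digits, had means of 23.0 ± 10.5 at 0 h and 73.3 ± 7.24 at 96 h (SD, n = 4), with a log2 fold change of 1.74 ± 0.33 (adjusted p = 2.43e-05) and no overlap. Hoxc4 had 44.6 ± 13.3 at 0 h, reached 83.2 ± 10.3 at 8 h and had 12.3 ± 2.67 at 96 h, with -1.76 ± 0.23 at 96 h (adjusted p = 3.81e-08). Hoxc5 had 15.1 ± 3.88 and 4.53 ± 0.871, and Hoxc13, which acts in hair and nails, 101 ± 11.9 and 51.9 ± 27.0. Hoxd9 had 11.5 ± 12.8 and 25.6 ± 5.97, with 30.2 in replicate 4 at 0 h above 3 of the 4 samples at 96 h. A further 4 did not pass at 96 h: Hoxa5 had means of 5.11 and 8.62, Hoxa7 12.1 and 12.4, Hoxb7 4.49 and 5.19, and Hoxc10 21.1 and 10.8. Hoxa5 had between 0 and 3.93 normalized counts in replicates 1 and 2 up to 16 h and between 3.78 and 25.1 in replicates 3 and 4.

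**Figure D4:**
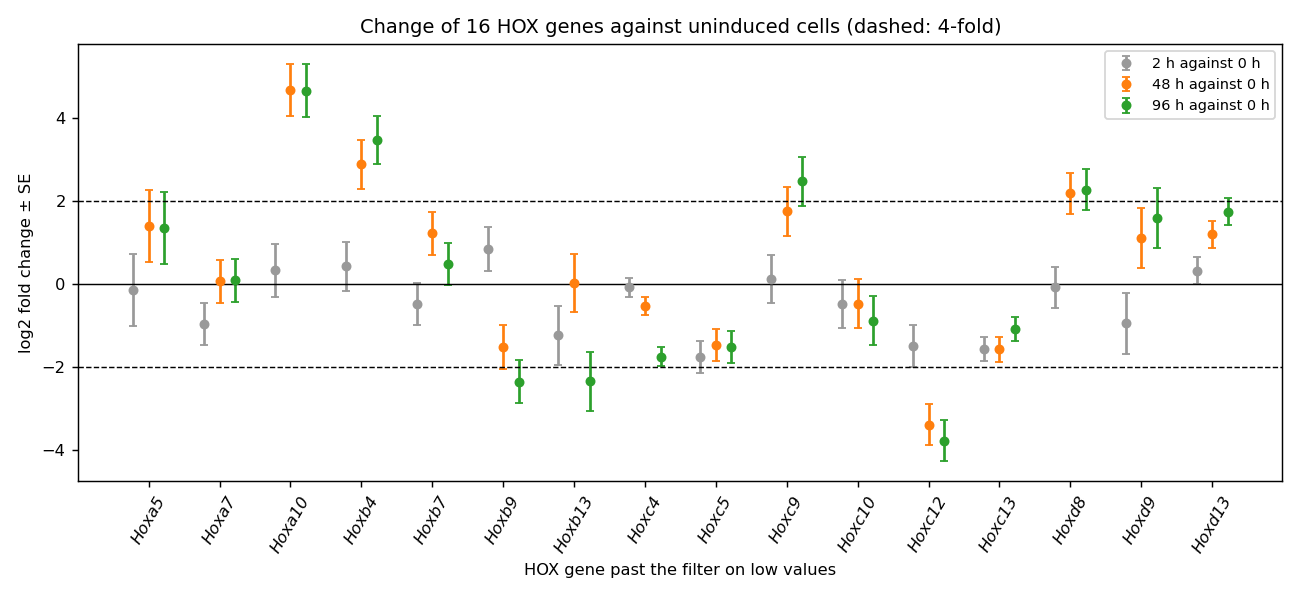
Log2 fold change with its standard error (vertical axis) against 0 h for each of 16 HOX genes that passed the filter (horizontal axis) at 2, 48 and 96 h. Dashed lines mark the 4-fold limit. At 2 h no gene is past it, and at 96 h Hoxa10, Hoxb4, Hoxc9 and Hoxd8 lie above it and Hoxb9, Hoxb13 and Hoxc12 below.

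After 2 h of serum medium and Dox some HOX genes had lower values than at 0 h, at a share near that of all genes. Of the 17, 4 had an adjusted p below 0.1 and a lower level at 2 h, whatever the fold, and none had a higher level. Over all genes these shares were 22.6% and 22.2%, so the count of lower HOX genes does not set them apart from other genes. Hoxc13 had 99.4, 88.3, 99.1 and 117 normalized counts at 0 h and 22.9, 27.2, 37.5 and 50.9 at 2 h. The groups did not overlap, and the log2 fold change was -1.58 ± 0.29 (adjusted p = 6.8e-05), short of 4-fold. Hoxc5 (-1.77 ± 0.38) and Hoxc12 (-1.503 ± 0.49) were also among the 4, and for Hoxc12 the groups overlapped.

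Since 0 h differs from all other groups in medium, 48 h and 96 h were also set against 2 h, when cells had been in serum medium for a short time. The 2 h cells were in Dox, whereas those at 48 h and 96 h had been without it since 12 h. This comparison thus holds the removal of Dox as well as time, and the parts of these cannot be told apart. At 48 h 4 HOX genes were called higher (8.5% of all genes) and 1 lower (7.65%). At 96 h 6 were called higher (9%) and 2 lower (10.6%). Hoxa10, Hoxb4, Hoxd8 and Hoxd9 were called higher at both times, Hoxc9 at 96 h, Hoxb9 lower at both times and Hoxc12 at 96 h. At 96 h the log2 fold changes were 4.33 ± 0.63 for Hoxa10, 3.05 ± 0.59 for Hoxb4, 2.54 ± 0.73 for Hoxd9, 2.36 ± 0.58 for Hoxc9 and 2.35 ± 0.49 for Hoxd8. For Hoxb9 the change was -3.18 ± 0.53 and for Hoxc12 -2.28 ± 0.49. The samples of Hoxc12 at 96 h had at most 2 reads, and its mean at 2 h was 7.80, so its value depends on the pseudocount. With a pseudocount of 5 the log2 fold change of Hoxc12 was -1.08, short of 4-fold. The adjusted p of these 7 lay between 4.45e-07 (Hoxa10) and 0.00262 (Hoxd9).

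Hoxd9 (chr2:74697727-74700208, plus strand), a posterior gene of cluster D, was called against 2 h and not against 0 h. It had 1.04, 0.755, 8.21 and 11.5 normalized counts at 2 h and 26.5, 33.7, 21.3 and 20.8 at 96 h, with no overlap. In replicates 3 and 4 alone its log2 fold change against 2 h was 0.54 at 48 h and 1.04 at 96 h, and both calls were lost. Averaging each set also ended its call at 48 h (2.05, limma's adjusted p = 0.107). Other calls against 2 h also rested on single libraries. For 48 h, that of Hoxd9 was lost without replicate 1 (1.68) or 2 (1.61) of 2 h or replicate 1 (1.95) or 2 (1.99) of 48 h, and that of Hoxd8 without replicate 1 of 2 h (1.92) and in replicates 3 and 4 alone (1.94). For 96 h, that of Hoxc9 was lost without replicate 2 of 2 h (1.78) and that of Hoxc12 without replicate 3 of 2 h (-1.95). Hoxc9 and Hoxd8 fell short of 4-fold at 96 h in replicates 3 and 4 alone (1.40 and 1.73), and Hoxc12 in replicates 1 and 2 alone (-1.70).

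Between consecutive time points after 0 h, 1 HOX gene was called. This was the lower level of Hoxb13 at 96 h against 48 h, beside 3.7% of all genes called in either direction there. None was called by limma or limma-voom in the 5 other steps, with 3, 4, 0, 2 and 4 at an unadjusted p under 0.05 for 4 h against 2 h, 8 h against 4 h, 16 h against 8 h, 24 h against 16 h and 48 h against 24 h. The shares of all genes called in these steps were 0.788%, 0.814%, 1.04%, 1.25% and 3.91%. These are at the threshold for calls, and the shares at an unadjusted p under 0.05 were not counted.

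Levels of different genes were compared per kb of exon, as normalized counts divided by the exon length in GENCODE M21. Of the genes reported singly, the highest mean per kb at 0 h was that of Hoxc13 (41.0 ± 4.84), followed by Hoxc12 (22.2 ± 12.5), Hoxc4 (17.4 ± 5.19) and Hoxb9 (13.2 ± 8.60), and Hoxa10 was last of 16 (1.02 ± 0.959). At 96 h Hoxd13 (29.5 ± 2.91) came first of these, followed by Hoxa10 (25.2 ± 5.49), Hoxc13 (21.1 ± 11.0) and Hoxb4 (19.5 ± 2.68), and Hoxc12 was last (0.714 ± 0.888). Samples of neighbours in the order overlapped for all 15 neighbouring pairs at 0 h and for 14 of 15 at 96 h, the exception being Hoxd9 (12.0 ± 2.80) above Hoxc10 (5.67 ± 2.38). The first 4 of them at 96 h carried the numbers 13, 10, 13 and 4.

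**Figure D5:**
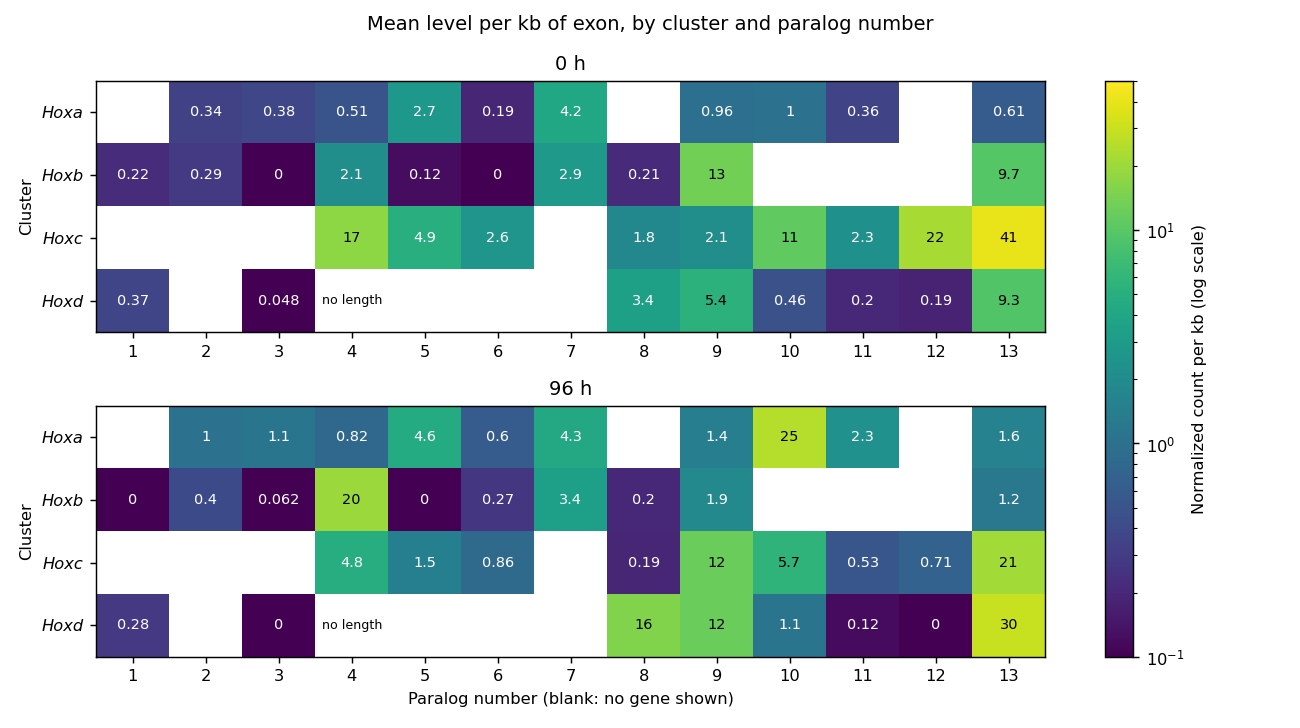
Mean normalized count per kb of exon at 0 h (top) and 96 h (bottom) for 38 HOX genes, by cluster (rows) and paralog number (columns), on a log colour scale with the value printed. Hoxc13 (41.0) and Hoxc12 (22.2) stand out at 0 h, whereas Hoxd13 (29.5) and Hoxa10 (25.2) do so at 96 h, and for Hoxd4 no exon length was found.

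Among the 9 genes of PBX, MEIS and PREP cofactors, 2 were called higher (9.28% of all genes) and 3 lower (10.3%) at 96 h against 0 h. Their median log2 fold change was 0.26, and that of all genes tested -0.03. Meis1 averaged 10.1 ± 0.822 normalized counts at 0 h and 219 ± 26.9 at 96 h (log2 fold change 4.29), and Meis3 14 ± 4.22 and 266 ± 19.7 (4.19). Meis2 went the other way, from 363 ± 58.1 to 46.0 ± 7.66 (-2.96), as did Pknox2 (-2.11) and Pbx4 (-2.01).

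Of the 6 ParaHox genes, which encode relatives of the HOX factors outside the clusters, 2 passed the filter. At 96 h against 0 h 1 of these was called lower, beside 10.3% of all genes. Cdx1, a known upstream regulator of HOX genes in the axis, averaged 589 ± 28.9 normalized counts before induction, with means of 221, 11.1 and 7.59 after 2, 24 and 48 h, and no read in the 4 samples of 96 h. Cdx2 averaged 26.2 ± 22.3 at 0 h and 32.5 ± 9.38 at 96 h and did not pass (adjusted p = 0.18). Cdx4 had at most 3 reads in a sample.

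Of 17 genes of Polycomb, Trithorax and retinoic acid handling, 16 passed the filter. At 96 h against 0 h 1 was called higher (9.28% of all genes) and 2 lower (10.3%). The median log2 fold change was -0.58, and that of all genes tested -0.03. Cyp26a1, which breaks down retinoic acid, was at 0 in the 4 samples at 0 h with means of 157 after 8 h, 1.32 after 24 h and 405 ± 63.8 after 96 h. Rarg, a retinoic acid receptor, went from 469 ± 130 to 93.8 ± 9.64 (log2 fold change -2.27), and Stra8 from 52.9 ± 48.8 to 0.263 ± 0.526. The other listed genes of retinoic acid handling were not called. Rara and Crabp2 had log2 fold changes of -1.65 and -1.14 at 96 h, and Dhrs3 0.46. Rarb, which did not pass the filter, averaged 3.77 ± 4.62 at 0 h and 9.71 ± 2.13 at 96 h. The Polycomb genes Ezh2, Eed and Suz12 were lower by less than 4-fold, with log2 fold changes of -0.89, -0.98 and -1.25. The other Polycomb genes listed, Ring1, Rnf2 and Cbx7, had log2 fold changes of 0.16, 0.05 and -0.07. Their adjusted p by limma was 0.31, 0.70 and 0.43.

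Genes that flank the clusters and genes within them were counted as well. Of 26 flanking genes 25 had a row and 21 passed the filter. At 96 h against 0 h none was called higher (9.28% of all genes) and 4 lower (10.3%). The median log2 fold change was -0.67, and that of all genes tested -0.03. At 48 h 1 was called higher, Snx10 (2.03), and 3 lower, beside 8.48% and 7.09% of all genes. At each of 8 h and 16 h 2 were called higher (3.4% and 4.03% of all genes) and none lower. The 4 at 96 h were Calcoco2 (log2 fold change -4.46), Ttll6 (-3.17), Chn1 (-2.09) and Evx1. Calcoco2 averaged 699 ± 642 normalized counts at 0 h, 3133 ± 400 at 8 h and 20.1 ± 9.59 at 96 h. Ttll6 averaged 48.2 ± 45.4 at 0 h and 2.45 ± 1.37 at 96 h. Evx1, a homeobox gene beside cluster A, averaged 15.0 ± 12.7 at 0 h and 0.263 ± 0.526 at 96 h.

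Noncoding genes of the clusters had few reads too. Of 15 listed 14 had a row and 1 passed the filter. Hotair had at most 3 reads in a sample, Hottip 1 and Hoxaas3 8, and the hairpin rows of miR-10a, miR-10b and miR-196b had 0. The row that passed was Mir196a-1, the hairpin gene of miR-196a on chromosome 11 upstream of Hoxb9. It averaged 18.1 ± 9.07 normalized counts at 0 h and 2.67 ± 4.17 at 96 h, with a log2 fold change of -2.93 ± 0.62 (adjusted p = 9.74e-05). Reads of a poly(A) library on this row count long transcripts that cross the hairpin, not the mature miRNA. The mature sequences of the called row and of its cluster A relative are shown with the seed (bases 2 to 8) in capitals, which both share.
miR-196a-5p: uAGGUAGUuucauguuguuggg
miR-196b-5p: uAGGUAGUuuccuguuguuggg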

How the data were processed

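Poly(A) RNA-seq (stranded kit, 50 base single reads) of 32 samples was used. Per the submitters' notes, cutadapt 2.7, HISAT2 2.1.0 (build GRCm38.p6) and featureCounts of Subread 1.6.4 made the counts, on GENCODE annotation. The strand setting and the treatment of reads on shared exons are not given in the sources used here. The deposited values are on a log2 scale, which the authors obtained by the variance stabilization of DESeq2. The transformation was inverted from the lowest value (1.58), which gave whole reads for 100% of values (tolerance 0.001). The 15227 genes that reached 10 normalized counts in 4 or more samples entered limma 3.58.1 (trend, R 4.3.3), as log2(normalized count + 1), over all 32 samples, with Benjamini-Hochberg adjustment per comparison (FDR < 0.1, at least 4-fold). The procedure was tested on simulated data.

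Of the rows, 29140 had no symbol, and a gene name table gave one for 29046. Members and lists were chosen with earlier results of these data known. Values for every sample are given for HOX genes past the filter and called against 0 h, with at most 5 called genes named for each other list, and Hoxd9 was added since it was called against 2 h. A HOX gene past the filter, included in all counts and sums, is not reported here by itself. Gene coordinates and exon lengths are from GENCODE M21 (GRCm38), which held 38 of the 39 genes, whereas counting used another release. Replicate numbers come from the sample titles. Numbers did not pair samples, since deviations from the time point means correlated at between -0.043 and 0.48 for the same number (mean 0.196), and at a mean of 0.196 for the other number of the same set. Between the sets they correlated at between -0.487 and 0.051 (mean -0.196), a mean that follows nearly from that within a set. Alternatives covered pseudocount, filter, scaling, unit, tool, blocks, samples in the fit, FDR and leaving out each library; the set block and each set alone were chosen after seeing the data. Counting error only is covered by read numbers, since PCR copies were not marked. Summaries used Python 3.11.15, numpy 2.4.6 and pandas 2.3.3.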

Additional observations from a re-analysis of the deposited data

Results flagged for a closer look

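Over 144 groups of 4 samples (17 HOX genes and the summed HOX level at 8 time points), 2 held a sample far from the other 3, and chance flags about 5% of such groups. Hoxc5 at 2 h had 7.39 normalized counts in replicate 4, against 2.34 to 3.12 in the other 3 samples. Hoxc12 at 24 h had 10.2 normalized counts in replicate 3, which rest on 5 reads in one of the shallower libraries (3844937 reads on genes), against 2.503 to 3.60 in the other 3.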

How the results depend on the processing

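No called change of a HOX gene reversed direction in any alternative, and 507 of the 568 values of these changes kept their call. The cause of the others was not tested. HOX changes that were not called were not counted here. Where a count of called HOX genes is given as higher or lower with a time, it is against 0 h unless 2 h is named. Counts are listed where they moved by over 1.5 times.

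Pseudocount 0.5 gave 2 higher at 16 h and 24 h and 2 lower at 48 h against 2 h. Pseudocount 5 gave 0 higher at 16 h, 0 lower at 24 h, 1 higher at 48 h, 2 higher and 1 lower at 96 h, and against 2 h 1 higher and 0 lower at 48 h and 3 higher and 1 lower at 96 h. The deposited values without inversion gave 0 lower at 24 h, 2 higher and 1 lower at 96 h, and against 2 h 1 higher and 0 lower at 48 h and 2 higher and 1 lower at 96 h. Without a filter there were 2 higher at 16 h and 2 lower at 24 h. A mean of at least 50 kept few HOX genes and gave 0 for all these counts except 1 higher at 96 h against 2 h. limma-voom gave 2 lower at 48 h against 2 h, and averaging the sets 0 lower at 24 h. Averaging ended 2 calls, those of Hoxc12 at 24 h and of Hoxd9 at 48 h against 2 h (2.05, adjusted p = 0.107). TMM factors, FDR < 0.05, a fit of 2 groups, the set block and the replicate block left all 27 called values called. In replicates 1 and 2 alone there were 1 lower at 4 h, 1 higher at 8 h, 2 higher and 0 lower at 24 h, 5 higher at 48 h, 7 higher at 96 h, and against 2 h 9 higher at 48 h and 1 lower at 96 h. In replicates 3 and 4 alone there were 1 higher at 8 h, 2 higher and 1 lower at 16 h, 2 lower at 48 h, and against 2 h 2 higher and 2 lower at 48 h and 2 higher at 96 h.

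Leaving out 1 library gave 0 to 1 lower at 2 h, 0 to 2 higher at 8 h, 1 to 2 higher at 16 h, 1 to 2 higher and 0 to 1 lower at 24 h, 2 to 5 higher at 48 h, 3 to 5 higher and 3 lower at 96 h, and against 2 h 2 to 5 higher and 1 to 2 lower at 48 h and 5 to 7 higher and 1 to 2 lower at 96 h. Of the 39 genes 2 had at most 1 read in every sample, 10 at most 3 and 17 at most 10. The depth limits what can be said of genes under the filter.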

Other observations

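In the span of the 4 clusters 46 other annotated genes had a row, of which 20 had no read in any sample, 14 had at most 3 reads in a sample and 3 passed the filter on low values. These 3, named after their values were seen, lie together between Hoxb13 and Hoxb9 on chromosome 11. Gm53, a long noncoding RNA gene that lies upstream of the hairpin gene Mir196a-1, had more reads than any HOX gene, with up to 336 in a sample. Its mean normalized count before induction was 198 ± 78.4 (SD, n = 4). The 2 h and 4 h means were 71.9 ± 40.8 and 133 ± 38.1, and the 48 h and 96 h means 46.0 ± 7.44 and 21.0 ± 8.21. Relative to 0 h, limma gave log2 fold changes of -2.01 ± 0.34 for 48 h (adjusted p = 5.61e-06) and -3.17 ± 0.34 for 96 h (adjusted p = 1.13e-09). Gm11539, a processed pseudogene whose reads may be shared with its parent gene, averaged 26.7 ± 4.02 at 0 h and 18.4 ± 2.42 at 96 h and was not called.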
